A study of Homo sapiens with 5 samples.

Results

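The genes of the ATF4 and amino acid stress response were followed in 5 clones of the Nalm6 line, which is established from a human B-cell precursor acute lymphoblastic leukaemia. The set was a fixed list of 37 symbols. A gene counted as measured where a probe set carried its symbol and no other, and where several did, the brightest on average was kept. This gave 35 measured members among 18417 genes on the array. CBS, whose probe set is annotated to more than 1 gene, and GPT2 gave no value by that rule. The controls were 2 clones with a nonsense short hairpin RNA (shRNA), and they were compared with 3 clones with a shRNA against MondoA, with 1 array for each clone. All clones were grown alike, in RPMI medium with 20% serum, glutamine, gentamycin and 200 mg/dl glucose, and no group was deprived of amino acids or given a stress agent. Nothing in the labels says whether the clones of a group came from separate transductions, so p-values measure the spread between these clones only. The values are log2 expression after RMA, a standard summary of array probes, and 1 unit is a doubling. Values by clone are given in the order control array 1 and 2, then MondoA shRNA array 1, 2 and 3, and errors are SD over n = 2 control or n = 3 MondoA shRNA arrays.

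Cells short of amino acids activate the kinase GCN2 (EIF2AK4), which phosphorylates the translation factor eIF2. Bulk protein synthesis then slows, while translation of the ATF4 mRNA increases. ATF4 protein turns on amino acid transporters, enzymes that make serine and asparagine, aminoacyl-tRNA synthetases and further transcription factors, among them CHOP (DDIT3). CHOP and its targets are linked to cell death when stress lasts. Leukaemic lymphoblasts are well known for relying on external asparagine, which is why asparaginase is used to treat them. SESN2, ATF3 and DDIT4 are also known targets of p53.

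The array labels and the cell identity were checked first. MLXIP, which encodes MondoA, read 6.42 in each control and 6.42, 6.47 and 6.29 in the 3 clones with the MondoA shRNA. Its difference was -0.03 (95% interval -0.21 to 0.16, adjusted p = 0.959 by limma), so lower MLXIP RNA was not detected, and directions below refer to the labels. Of 12 markers of B precursors 10 were measured, and all 10 lay above 4.15, the median gene level of the arrays. For other cell types this held for 2 of 6 T and natural killer markers, 0 of 5 myeloid, 1 of 4 erythroid and 1 of 5 fibroblast markers. None of these 20 differed at an unadjusted p under 0.05 in limma. The B-precursor markers CD22, CD79A and CD79B were higher and DNTT lower in MondoA shRNA arrays at that threshold, and their part in the results below was not tested.

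A minority of the members read lower in every MondoA shRNA clone. In bulk RNA of a clone, fewer cells with a transcript and less of it in each cell cannot be told apart. The lower members came from different arms of the response. Those at an unadjusted p under 0.05 were DDIT3, CHAC1 and ATF3 of the CHOP branch, the cystine transporter gene SLC7A11, the secreted glycoprotein gene STC2 and the growth regulator gene SESN2. ATF4 RNA itself differed by -0.02, and the serine and asparagine enzymes read level or slightly higher. By limma, 0 of 35 members passed an adjusted p under 0.05, as did 0% of all genes. At an unadjusted p under 0.05, 6 of 35 members (17.1%) were lower, beside 2.18% of all genes and 3.56% of the genes above the median level. No member was higher at that threshold, beside 1.55% of all genes and 2.33% of the brighter ones. Every MondoA shRNA array lay below both controls in 8 members (22.9%), beside 5.18% of all genes and 8.36% of the brighter ones. Every MondoA shRNA array lay above both controls in 3 members (8.57%), beside 4.85% and 7.22%. A difference of -0.5 or lower was found in 5 members, beside 1.14% of all genes and 2.04% of the brighter ones. A difference of 0.5 or more was found in 0 members, beside 0.586% and 1.01%. The median difference was -0.02 over the members and 0.00 over all genes. The list was proposed with results of these arrays known, so these shares are a description of it.

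**Figure D1:**
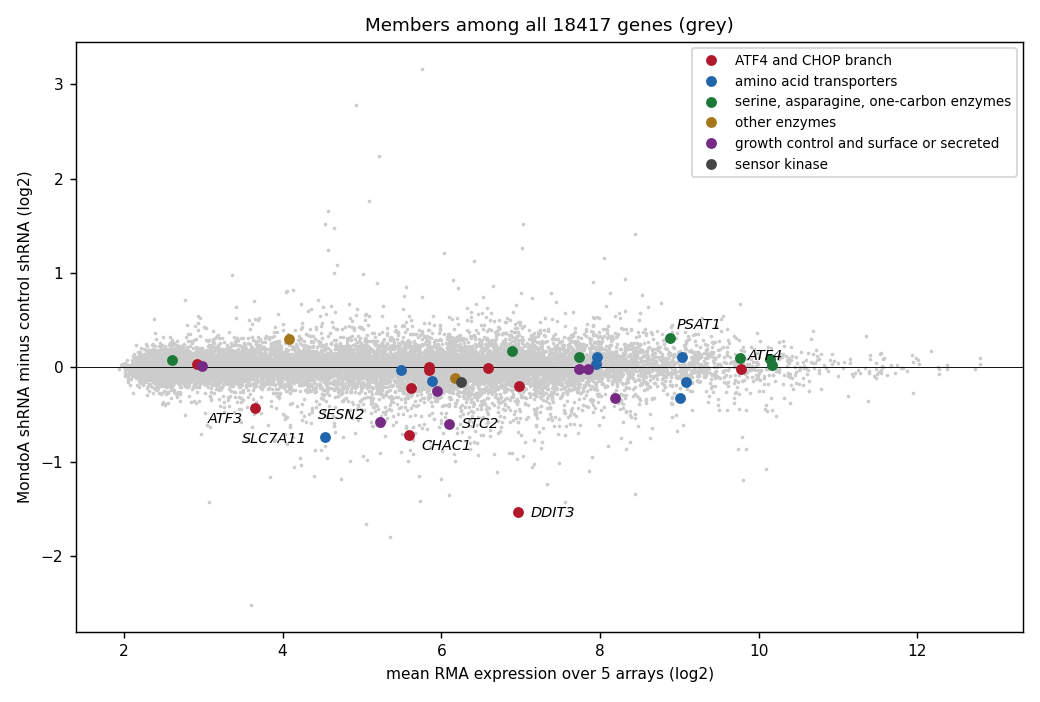
Difference between groups (log2, vertical axis) against mean expression over the 5 arrays (log2, horizontal axis) for all 18417 genes in grey and the 35 members in colour by role. DDIT3 stands at -1.53, while ATF4 at -0.02 and most transporters and enzymes lie inside the grey band around 0.

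At the top of the pathway, the sensor kinase gene EIF2AK4 (probe set 7982620, chromosome 15) read 6.40 and 6.28 in control clones and 5.88, 6.46 and 6.23 in MondoA shRNA clones. The groups overlapped, with MondoA shRNA array 1 lowest and array 2 highest of all 5. The difference was -0.15 (95% interval -0.75 to 0.44). ATF4 (probe set 8180337, chromosome 22) read 9.79 and 9.78 in control and 9.70, 9.80 and 9.80 in MondoA shRNA arrays. The difference of -0.02 had a 95% interval from -0.12 to 0.09. A second, dimmer ATF4 probe set differed by 0.08. ATF4 is controlled largely in translation, and its protein was not measured here.

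The largest difference among the 35 was in the CHOP branch. DDIT3 (probe set 7964460, chromosome 12) encodes CHOP, a bZIP factor that pairs with C/EBP proteins. It read 7.87 and 7.90 in control clones and 6.00, 6.95 and 6.10 in MondoA shRNA clones. The groups did not overlap, and MondoA shRNA array 2 lay about midway between its sister clones and the controls. The means were 7.88 ± 0.02 and 6.35 ± 0.52, a difference of -1.53 ± 0.36 (SE) or a level 2.89-fold higher in control. This was the fourth lowest difference of all genes (rank 4), at an adjusted p of 0.833 and an unadjusted p of 0.0161 in limma. Without MondoA shRNA array 2 the difference was -1.83 and the unadjusted p in limma 0.00016; without any other single array it lay between 0.0503 and 0.0863. The 10 nearest measured coding genes, 5 on each side in RefSeq order, differed by -0.17 to 0.04, MARS1 next to DDIT3 among them. Only MARS1, MBD6 and DCTN2 of these read above the median gene level, and they differed by -0.03, 0.02 and -0.05. The others were dim and could show little of a drop.

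CHAC1 and ATF3 lay on the same side. CHAC1 (probe set 7982868, chromosome 15), which encodes a glutathione-degrading enzyme downstream of ATF4, read 6.19 and 5.86 in control and 5.46, 5.19 and 5.27 in MondoA shRNA arrays. All 3 MondoA shRNA values lay under the lower control, although the controls themselves were 0.33 apart. The difference was -0.72 ± 0.15 (SE), with an unadjusted p of 0.0114 and an adjusted p of 0.833 in limma. ATF3 (probe set 7909610, chromosome 1), a stress-induced bZIP factor, read 3.96 and 3.86 in control and 3.58, 3.58 and 3.27 in MondoA shRNA arrays. The groups were apart by -0.44 (unadjusted p = 0.0346, adjusted p = 0.833 in limma). That unadjusted p was 0.00939 without MondoA shRNA array 3 and between 0.0610 and 0.160 without any other single array. Both ATF3 means were below the median gene level, and whether the probe set was above background was not assessed.

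Other members of the branch were close between groups or overlapped. PPP1R15A, the CHOP-induced subunit that directs dephosphorylation of eIF2, read 5.86 and 5.63 in control and 5.61, 5.63 and 5.35 in MondoA shRNA arrays. Its difference of -0.22 came with a 95% interval from -0.61 to 0.17 and ran from -0.33 to -0.10 with 1 array left out, and control array 2 matched MondoA shRNA array 2. TRIB3, a pseudokinase induced by ATF4 and CHOP, read 7.05 and 7.15 against 7.14, 6.91 and 6.66. MondoA shRNA array 1 was at the control level and array 3 was lowest, and the difference was -0.20 (95% interval -0.69 to 0.29). The partner genes CEBPG and JDP2 differed by -0.00 and -0.02. CEBPB had 5.85 in all 5 arrays, and NUPR1 read 2.87 to 2.94, below the median gene level. Identical values across arrays are frequent in these RMA data: 18 of 35 members had at least 1 tied pair, as had 14116 of 18417 genes. Over the 10 members of the branch the median difference was -0.11, with 3 members lower and none higher at an unadjusted p under 0.05 in limma, beside 2.18% of all genes lower and 3.56% of the brighter ones. That median was -0.20 with array weights, -0.063 when control array 1 was left out and -0.053 when MondoA shRNA array 3 was.

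**Figure D2:**
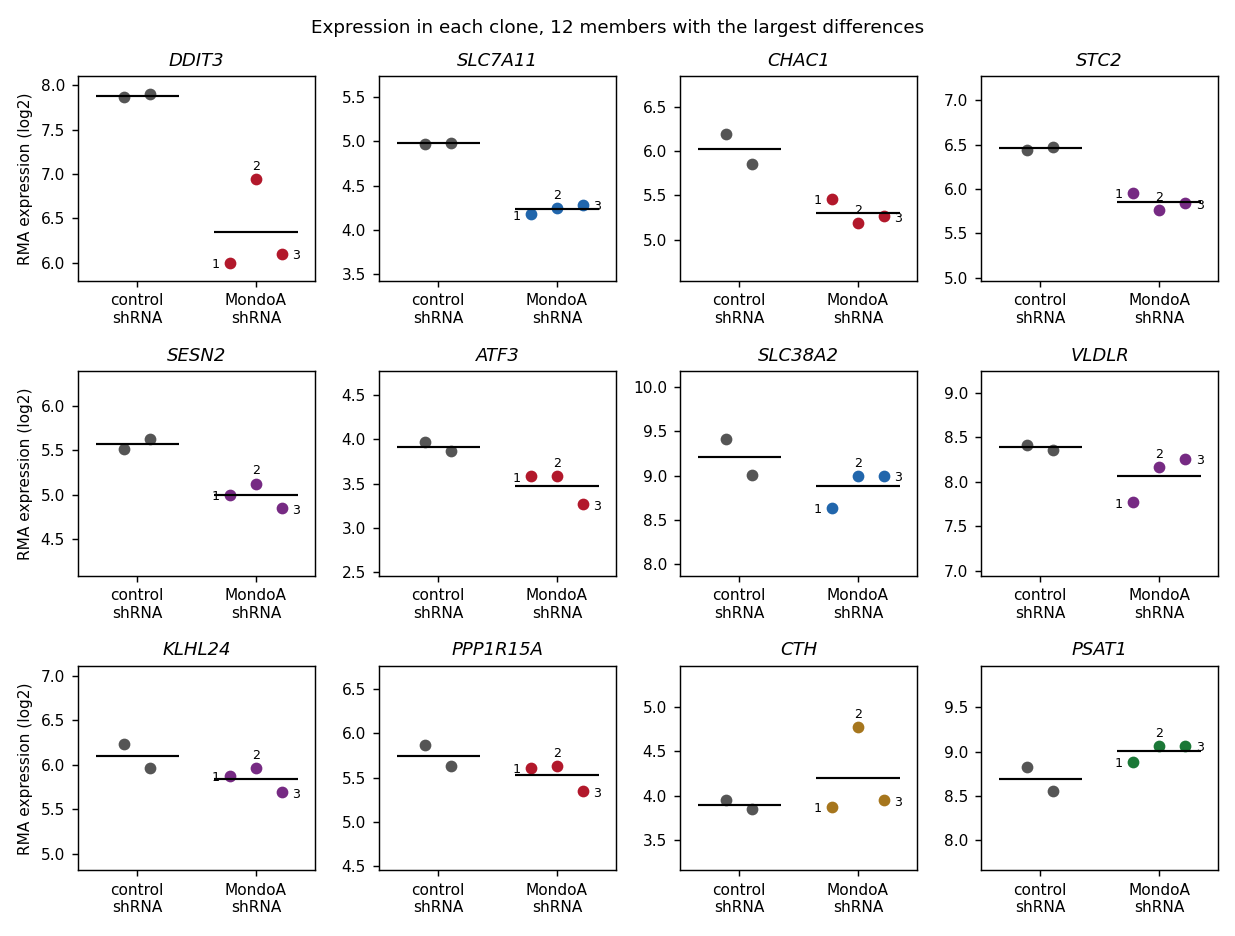
RMA expression (log2) in each clone for the 12 members with the largest absolute difference, with 1 point per array, MondoA shRNA arrays numbered 1 to 3 and a bar at each group mean. Every panel spans the same number of log2 units. DDIT3 has group means of 7.88 and 6.35 with array 2 at 6.95, SLC7A11 is tight in both groups, and CTH is set by MondoA shRNA array 2 at 4.77.

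Among the 8 transporter genes, SLC7A11 stood apart. SLC7A11 (probe set 8102800, chromosome 4) encodes xCT, which imports cystine in exchange for glutamate and so feeds glutathione synthesis. It read 4.97 and 4.98 in control and 4.17, 4.25 and 4.29 in MondoA shRNA arrays. Both groups were tight and well separated. The MondoA shRNA values lay close to 4.15, the median gene level, and whether the probe set was above background there was not assessed. The difference of -0.74 ± 0.04 (SE) had a 95% interval from -0.86 to -0.63, and SLC7A11 had the lowest p of the members (unadjusted p = 0.000109, adjusted p = 0.349 in limma). With 1 array left out it ran from -0.77 to -0.71.

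SLC3A2 encodes the heavy chain that SLC7A11 shares with the leucine transporter SLC7A5. SLC3A2 read 9.25 and 9.11 in control and 9.09, 8.65 and 9.32 in MondoA shRNA clones, which gave a difference of -0.16 with overlapping groups. Its 95% interval from -0.85 to 0.53 includes the difference of SLC7A11. SLC7A5 read 8.95 and 8.97 against 9.12, 8.81 and 9.29, a difference of 0.11 (95% interval -0.37 to 0.59). In both genes MondoA shRNA array 2 was the lowest and array 3 the highest of all 5. The arginine and lysine transporter gene SLC7A1 had the same order among the MondoA shRNA clones, with 7.93, 7.80 and 8.15 against 7.93 in both controls.

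SLC38A2, a sodium-coupled transporter of glutamine and other small neutral amino acids, read 9.41 and 9.00 in control and 8.64, 9.00 and 9.00 in MondoA shRNA arrays. Its groups were separated by under 0.01 at their nearest, and its difference of -0.33 (unadjusted p = 0.183 in limma) shrank to -0.12 when control array 1 was left out and to -0.21 when MondoA shRNA array 1 was. The glutamine transporter gene SLC1A5 differed by 0.11, the serine and alanine transporter gene SLC1A4 by -0.14 and the glycine transporter gene SLC6A9 by -0.03, each with overlapping groups. The median over the 8 transporters was -0.09, with SLC7A11 lower and none higher at an unadjusted p under 0.05 in limma, beside 2.18% of all genes lower. Without MondoA shRNA array 2 that median was 0.012, so the transporters as a group had no settled direction.

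The enzymes that make serine, asparagine and one-carbon units did not read lower. All 7 had a difference above 0, from 0.02 to 0.31, with a median of 0.10. Of all 18417 genes, 9046 had a difference above 0. Without control array 2, SHMT2 and MTHFD2 differed by -0.01 and -0.02 and ALDH1L2 by 0. Of the 7, 0 were past an unadjusted p of 0.05 in limma. PSAT1, the aminotransferase of serine synthesis (probe set 8156043, chromosome 9), read 8.82 and 8.56 in control and 8.89, 9.06 and 9.07 in MondoA shRNA arrays. All MondoA shRNA arrays were above both controls, and the difference was 0.31 (95% interval -0.02 to 0.65, unadjusted p = 0.0603, adjusted p = 0.833 in limma). It was 0.18 without control array 2, and 0.45 without control array 1. ASNS, asparagine synthetase (probe set 8141150, chromosome 7), read 6.81 and 6.77 against 6.82, 7.15 and 6.92. MondoA shRNA array 1 was at the control level and array 2 was highest. The difference was 0.17, and its 95% interval from -0.17 to 0.52 excludes a difference as low as that of DDIT3 or SLC7A11 themselves.

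PHGDH, the first enzyme of serine synthesis, read 9.74 and 9.67 against 9.51, 9.92 and 9.96, so that MondoA shRNA arrays lay on both sides of control. PSPH, the last enzyme of that pathway, read 7.70 and 7.63 against 7.71, 7.91 and 7.71, with every MondoA shRNA array above control by a small margin. A second PSPH probe set gave 0.33, with MondoA shRNA array 3 highest at 7.40. Near-identical copies of PSPH exist in the genome, and signal shared with them was not tested. SHMT2 and MTHFD2, mitochondrial folate enzymes, differed by 0.02 and 0.08. ALDH1L2, another of these, read 2.48 to 2.64 in all arrays, below the median gene level.

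**Figure D3:**
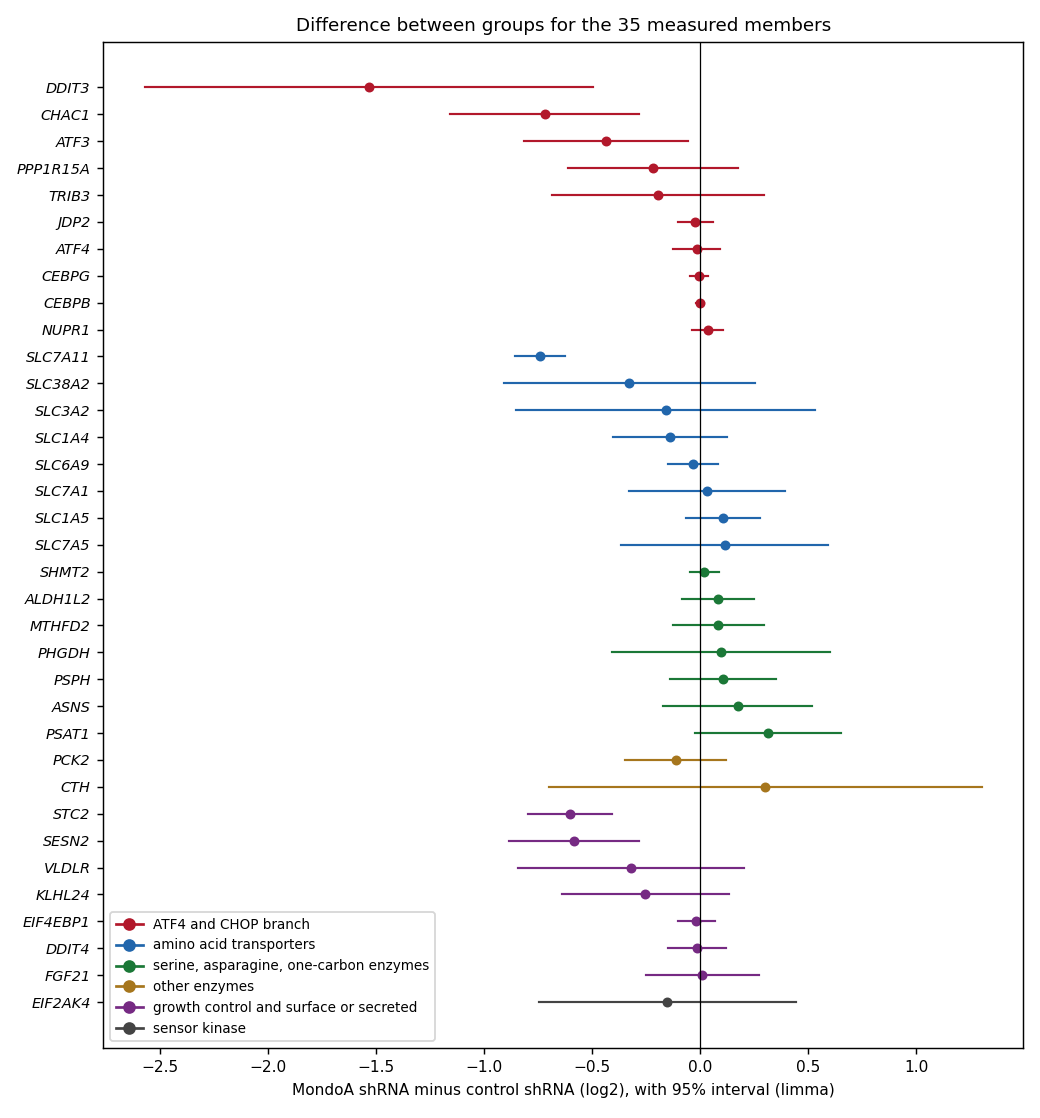
Difference MondoA shRNA minus control shRNA (log2, horizontal axis) for the 35 measured members, by role, as points with the 95% interval from limma as lines. The intervals of DDIT3, CHAC1, ATF3, SLC7A11, STC2 and SESN2 lie below 0, and those of all 7 serine, asparagine and one-carbon enzymes include 0.

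Among other enzymes, PCK2, the mitochondrial phosphoenolpyruvate carboxykinase, differed by -0.11. CTH, which makes cysteine from cystathionine, read 3.95 and 3.85 in control and 3.88, 4.77 and 3.95 in MondoA shRNA arrays. MondoA shRNA array 2 alone was high, and the difference of 0.30 (95% interval -0.70 to 1.30) was 0.015 without it. The mean of CTH over the 5 arrays, 4.08, was below the median gene level of 4.15.

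Of the 7 members that act on growth or are secreted or at the surface, STC2 and SESN2 were lower at an unadjusted p under 0.05 in limma, beside 2.18% of all genes. STC2 (probe set 8115851, chromosome 5), a secreted stanniocalcin induced by stress, read 6.44 and 6.47 in control and 5.96, 5.77 and 5.84 in MondoA shRNA arrays. The groups were far apart relative to their spread, with a difference of -0.60 ± 0.07 (SE), an unadjusted p of 0.00139 and an adjusted p of 0.485 in limma. SESN2 (probe set 7899436, chromosome 1), a leucine sensor that restrains the growth kinase complex mTORC1, read 5.52 and 5.63 against 5.00, 5.12 and 4.85. Its groups were also separate, with a difference of -0.58 ± 0.10 (SE), an unadjusted p of 0.00686 and an adjusted p of 0.833 in limma. Without control array 2 that unadjusted p was 0.0512.

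VLDLR, a lipoprotein receptor induced by ATF4, read 8.42 and 8.36 against 7.77, 8.17 and 8.26. The groups did not overlap, but MondoA shRNA array 1 carried much of the difference of -0.32 (unadjusted p = 0.158 in limma), which was -0.17 without it. KLHL24, a ubiquitin ligase adaptor, read 6.23 and 5.96 against 5.88, 5.96 and 5.69, with control array 2 level with MondoA shRNA array 2. DDIT4 and EIF4EBP1, which restrain mTORC1 signalling and cap-dependent translation, differed by -0.01 and -0.02, and the hormone gene FGF21 read 2.86 to 3.12 in all arrays.

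The clones labelled MondoA shRNA varied among themselves. The median SD over the 35 members was 0.12 among MondoA shRNA and 0.05 among control arrays. It was 0.13 and 0.05 over the genes above the median level and 0.079 and 0.032 over all genes. The groups hold 3 and 2 arrays and tied values set some SDs to 0, so the SDs of the 2 groups are not directly comparable. DDIT3 and CTH were the most variable members, with an SD of 0.52 and 0.50 among MondoA shRNA arrays, and 0.69% and 0.82% of all genes had a larger SD there. MondoA shRNA array 2 was the odd clone in both. The 6 lower members had no common order among these clones: arrays 1, 2 and 3 were each lowest in 2 of them. For DDIT3 array 2 was highest, whereas for CHAC1 and STC2 it was the lowest.

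**Figure D4:**
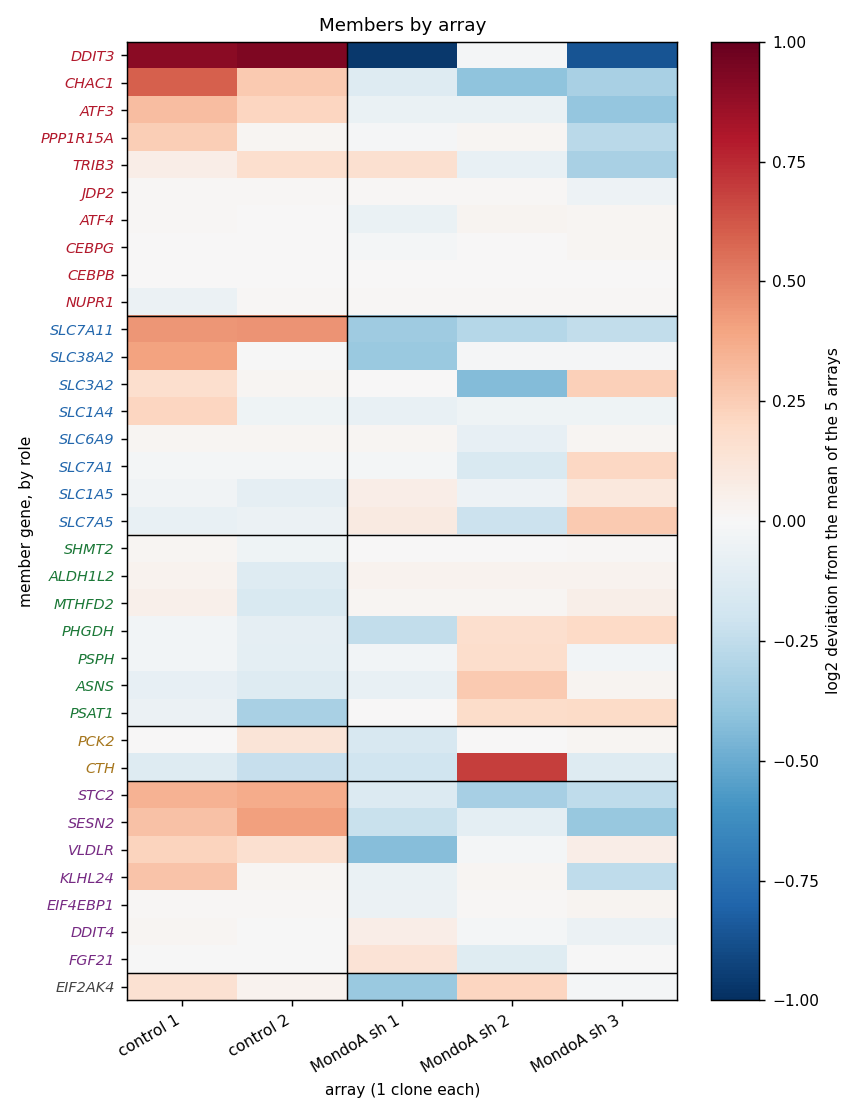
Deviation of each array from the 5-array mean of the gene (log2, colour) for the 35 members, in rows by role, with the 2 control arrays left and the 3 MondoA shRNA arrays right of the vertical line. CHAC1, SLC7A11, STC2 and SESN2 change colour at the line. DDIT3 does so in MondoA shRNA arrays 1 and 3, while array 2 lies close to its 5-array mean. DDIT3, SLC3A2, SLC7A5 and CTH vary among the MondoA shRNA arrays.

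The promoters were then read for the C/EBP-ATF response element, the composite site through which ATF4 with a C/EBP partner acts. RefSeq (GRCh38.p14) gave windows for 30 of the 37 members, from 250 bases before to 50 bases after a start site. The core TGATGNAA, searched on both strands (TTNCATCA on the other), was in a window of 10 of the 30 (33.3%), and in 4.46% of the 27305 genes with windows. The list was drawn up as genes of the ATF4 response, so a higher share there is no separate result. The 27305 genes had 35116 windows, and a gene with several had more chances of a match. Matches were found for 4 of 9 CHOP-branch members (ATF3, CHAC1, CEBPG and JDP2) and 4 of 7 transporters (SLC1A4, SLC1A5, SLC3A2 and SLC7A1). ASNS and FGF21 were the other matches. Of the 10, 2 (CHAC1 and ATF3) were lower at an unadjusted p under 0.05 in limma. Of the 19 measured members with windows and no match, 3 (DDIT3, STC2 and SESN2) were lower at that threshold. Beside these stand 2.18% of all genes and 3.56% of the brighter ones. Both counts rest on few genes, and a difference between members with and without a match was not tested. The median difference was -0.01 with a match and -0.11 without one. SLC7A11 had no window. A match is a run of letters, not a shown binding site, and no match speaks only of this window.

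CHAC1 and ASNS illustrate the contrast, since both windows hold the core while the genes differed by -0.72 and 0.17. The 250 bases before each start are given 5' to 3' on the gene's strand, with the core in capitals, and DDIT3, the member with the largest difference, is given beside them.
CHAC1 (chr15:40953221-40953470, plus strand): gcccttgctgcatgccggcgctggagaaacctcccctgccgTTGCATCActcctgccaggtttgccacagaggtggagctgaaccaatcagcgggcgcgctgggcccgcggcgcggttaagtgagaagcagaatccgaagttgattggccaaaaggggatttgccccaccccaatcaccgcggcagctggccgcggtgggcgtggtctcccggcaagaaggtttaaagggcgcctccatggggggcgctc
ASNS (chr7:97872409-97872658, minus strand): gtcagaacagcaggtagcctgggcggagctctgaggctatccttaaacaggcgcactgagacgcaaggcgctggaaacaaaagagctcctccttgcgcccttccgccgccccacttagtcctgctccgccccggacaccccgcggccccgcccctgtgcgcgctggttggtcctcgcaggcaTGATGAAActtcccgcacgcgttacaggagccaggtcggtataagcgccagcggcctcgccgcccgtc
DDIT3 (chr12:57520515-57520764, minus strand): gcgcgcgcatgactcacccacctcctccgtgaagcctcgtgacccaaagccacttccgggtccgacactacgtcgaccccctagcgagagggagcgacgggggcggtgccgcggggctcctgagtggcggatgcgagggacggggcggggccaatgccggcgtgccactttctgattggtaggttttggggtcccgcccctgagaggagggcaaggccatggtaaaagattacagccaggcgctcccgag

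The cores of the other members with a match that begins before the start site are given with 11 bases on each side, to show that the flanks differ and that CEBPG, JDP2 and SLC1A5 share 1 core, which SLC1A4 and FGF21 carry on the other strand. CEBPG, JDP2 and SLC1A5 differed by -0.00, -0.02 and 0.11. SLC1A4 and FGF21 differed by -0.14 and 0.01. CHAC1, given above, holds that core on the other strand too and differed by -0.72.
ATF3 (chr1:212565205-212565234, plus strand): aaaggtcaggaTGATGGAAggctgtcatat
CEBPG (chr19:33374060-33374089, plus strand): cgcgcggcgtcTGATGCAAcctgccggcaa
JDP2 (chr14:75427995-75428024, plus strand): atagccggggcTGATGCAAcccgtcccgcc
SLC1A4 (chr2:64989381-64989410, plus strand): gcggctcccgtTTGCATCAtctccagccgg
SLC1A5 (chr19:46784893-46784922, minus strand): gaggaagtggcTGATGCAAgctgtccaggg
FGF21 (chr19:48755459-48755488, plus strand): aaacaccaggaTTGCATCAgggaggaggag

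The rest of the pathway was read from 3 further lists. Among 16 genes of eIF2, its kinases, its exchange factor and its regulators, 1 (6.25%) was lower and 0 were higher at an unadjusted p under 0.05 in limma, beside 2.18% and 1.55% of all genes. That share rests on 1 gene, and the median of the list was -0.03. That gene was GCN1 (probe set 7966938), the ribosome-bound activator of GCN2, which read 7.67 and 7.60 in control and 7.24, 6.99 and 7.37 in MondoA shRNA arrays. Its groups did not overlap, and the difference was -0.43 (unadjusted p = 0.0389, adjusted p = 0.833 in limma). The other eIF2 kinase genes EIF2AK1, EIF2AK2 and EIF2AK3 differed by 0.01, -0.07 and -0.03.

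Of 29 measured further targets of ATF4, 1 (3.45%) was lower and 2 (6.90%) were higher at that threshold, beside 2.18% and 1.55% of all genes and 3.56% and 2.33% of the brighter ones. The median was -0.01, and the lower share was close to the background. GADD45A (probe set 7902227), a growth arrest gene also induced by p53, read 7.51 and 7.60 against 6.75, 7.22 and 6.86, in the same order as DDIT3 across all 5 arrays. Its difference was -0.61 (unadjusted p = 0.0281, adjusted p = 0.833 in limma). ATF5 (probe set 8030557), a bZIP factor translated under stress much as ATF4 is, read higher, with 8.68 and 8.59 against 9.09, 9.09 and 9.01. Both groups were tight, and the difference was 0.42 (unadjusted p = 0.0011, adjusted p = 0.435 in limma). EPRS1 (probe set 7924351), a tRNA synthetase gene, read 8.47 and 8.26 against 8.83, 9.15 and 9.15, a difference of 0.68 (unadjusted p = 0.0123, adjusted p = 0.833 in limma). The last list held 18 genes of the IRE1 and ATF6 branches of the unfolded protein response. None passed an unadjusted p of 0.05 in limma in either direction, beside 2.18% of all genes lower and 1.55% higher. For a list of 18 that is near the background. Differences ran from -0.15 to 0.14. The chaperone gene HSPA5 read 9.68 and 9.59 in control and 9.68, 9.15 and 10.05 in MondoA shRNA arrays, with array 2 lowest and array 3 highest as for SLC3A2 and SLC7A5.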

How the data were processed

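RNA of 5 Nalm6 clones was hybridised to Affymetrix whole-transcript arrays (200 ng total RNA, per the labels). Per the submitters' processing notes the authors ran RMA with Affymetrix Expression Console 1.1. What they deposited is 1 log2 value per probe set and array. The log base is not stated and was taken as 2. Genome build and probe filters are not given in the sources used here. Values in 33297 probe sets ran from 1.42 to 13.3. Symbols came from the platform annotation, updated by Entrez number through a RefSeq table (GRCh38.p14), and 19429 of 19460 probe sets with 1 symbol matched. Each gene kept its brightest probe set.

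Groups were compared with limma 3.58.1 in R 4.3.3 (linear model, empirical Bayes, two-sided), with Benjamini-Hochberg adjustment over 18417 genes at 0.05, after the step was tested on simulated data. Values by array are given for members at an unadjusted p under 0.05 and for the 12 with the largest absolute difference, and of the other lists for up to 4 genes at that p. EIF2AK4, ATF4, TRIB3, SLC3A2, SLC7A5, SLC7A1, ASNS, PHGDH, PSPH and HSPA5 were added after their values were seen, as were the 3 eIF2 kinase genes. The members and lists were chosen with earlier results of these data known. Lists are described by counts and medians. The number of arrays limits the precision. Alternatives left out each array, blocked on replicate number, normalised or centred again, filtered dim genes, averaged probe sets, changed the moderation or weighted arrays. Leaving out genes with tied values was an alternative chosen after seeing the data.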

Additional observations from a re-analysis of the deposited data

How the results depend on the processing

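Over the alternatives, the 12 members with the largest differences kept their direction in all 162 values, many of which hold the same difference with another p. The 12 were chosen by that difference. Where the groups do not overlap, leaving out an array cannot turn the direction, so this was largely fixed beforehand. With both controls kept, 2.56% (no moderation) to 12.8% (genes free of ties) of the genes tested reached an unadjusted p below 0.05 by limma. As reported, that share was 3.73%. A second quantile normalisation put 7 lower members and 1 higher member past this threshold, and array weights put 6 lower and 2 higher. Members past it in either direction numbered 5 to 8. CHAC1, SLC7A11 and STC2 were among them in 14 of 14 alternatives, SESN2 in 13, DDIT3 in 9 and ATF3 in 7 of 12. The count of all genes past the adjusted threshold in limma, 0 as reported, was 0 to 752 on leaving out 1 array. It was 2 after a second quantile normalisation, 2 after median centring, 3 with no variance moderation and 60 over genes free of ties. The count of members past it, 0 as reported, was 2 over genes free of ties (DDIT3 at an adjusted p of 0.0325 and SLC7A11 at 0.028) and 0 to 1 on leaving out 1 array. The single members were ALDH1L2 without control array 1 and NUPR1 without control array 2, both with 3 equal MondoA shRNA values. The lone control is there assumed to vary like the other group. Free of ties 4301 genes and 17 members were tested, so fewer p-values were adjusted and the variance moderation came from those genes only. The unadjusted p in limma also moved, from 0.0161 to 0.000371 for DDIT3 and from 0.000109 to 0.000273 for SLC7A11. The CHOP-branch median of -0.11 was -0.20 with array weights and -0.15 to -0.05 with 1 array left out. The transporter median of -0.09 was 0.016 with array weights and -0.13 to 0.012 with 1 array left out, and the causes were not tested. The serine and asparagine median ran from 0.063 to 0.17. With the replicate number as a block 0 genes and 0 members passed. An unadjusted p below 0.05 by limma was then reached by 3.58% of all genes and by 6 members, all lower. These were ATF3, CHAC1, PCK2, SESN2, SLC7A11 and STC2, so PCK2 came in and DDIT3 dropped out. DDIT3 differed by -1.41 in that fit (unadjusted p = 0.0924 in limma). Same-numbered clones did not deviate together (correlation -0.31 and -0.24 over 9208 genes), and the labels give no pairing. The number of arrays limits the precision of each difference.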
